A study of Bos taurus with 18 samples.

Results

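VNN1 and VNN2 encode the vanins, and they were followed here in bovine cumulus cells, the somatic cells around the oocyte, over 4 lengths of coasting. Coasting is the time that follicles grow on after FSH, the hormone that drives their growth, is withdrawn. Both genes were found by their symbol in the platform annotation. Each had 1 probe, so the account covers 2 of 11044 genes that passed the filter on dim probes, and both passed it. The genes were chosen by their measured log2 ratios in earlier readings of these arrays, in which VNN1 was the highest gene at 92 h and VNN2 among the lowest at 68 h. Their ratios against 20 h are therefore given as a description, without a test.

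The cumulus cells came from 6 cycling Holstein cows in milk, 4 years old on average, by ovum pick-up in 24 collections. Every cow received 6 injections of 40 mg FSH over 3 days and was collected at each of the 4 coasting lengths, in different cycles and with a corpus luteum present. After 20 h the follicles measured 3 to 5 mm, after 44 and 68 h 6 to 8 mm, and after 92 h more than 8 mm, so that coasting time and follicle size cannot be told apart in any comparison with 20 h or with 92 h. Follicle size was the same at 44 and 68 h. RNA amplified in 2 rounds from the 44, 68 or 92 h cells was hybridised on 18 dual-channel arrays against RNA from 20 h. Each comparison had 3 numbered replicates, each in both dye orientations. Arrays of one number and opposite orientation were taken as a dye swap of the same RNA and averaged, which the labels do not state, and every n of 3, its SD and the gaps between orientations rest on this reading. The labels do not say which cows entered which replicate, or whether the 3 sets of arrays shared 20 h RNA, so spreads are those between these samples and may be partly technical.

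Vanins are enzymes that cut pantetheine, a breakdown product of coenzyme A, into pantothenic acid and cysteamine. Pantothenic acid is the vitamin from which cells rebuild coenzyme A, and cysteamine is a small aminothiol that other enzymes oxidise to hypotaurine, the precursor of taurine. VNN1 is held on the outer cell membrane by a GPI anchor. In the mouse it has been studied in gut, liver and kidney, where it bears on glutathione stores and is a target of the fatty acid receptor PPARA. In humans, VNN2 is known as a GPI-anchored protein of neutrophils. In RNA from whole cell preparations a different share of expressing cells and a different amount of RNA per cell cannot be told apart.

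VNN1 mRNA was far more abundant after 92 h of coasting than after 20 h. Its log2 ratio was 4.19, 4.05 and 3.03 in replicates 1, 2 and 3, with a mean of 3.76 ± 0.63 (SD, n = 3), which is 13.5 times the 20 h level. All 6 arrays lay between 2.88 and 4.33. VNN1 had the highest mean ratio of the 11044 genes and was one of the 137 called higher at 92 h, 1.24% of all, by limma at an adjusted p of 0.05 (256 genes, 2.32%, in either direction). A mean of 1 or more at 92 h was found in 1.52% of genes. With 92 h replicate 1 left out, or with a trended and robust variance prior in the fit, 0 genes passed at 92 h, so VNN1 was not called. Its rank and call are what brought the gene to attention and carry no further weight here.

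The scanned brightness shows the same gap before any normalization. At 92 h the mean VNN1 spot read 7765 in the 92 h channel and 299 in the 20 h channel of replicate 1 with the coasted sample in Cy3. It read 6529 and 327 when the dyes were exchanged. In replicate 2 the pairs were 15634 against 814 and 11576 against 784, and in replicate 3 they were 3786 against 334 and 2948 against 347. Replicate 2 was the brightest in both channels, and replicate 3 had the dimmest 92 h signal. The 92 h spots were at least 20.9 times as bright over local background as the detection limit, while the 20 h spots lay between 1.66 and 6.75 times that limit. The limit was set at 2 SD over the average negative control spot.

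At the earlier times VNN1 differed between replicates far more than between dye orientations. After 68 h its log2 ratio was 0.97, 1.73 and 0.02, with a mean of 0.91 ± 0.85 (SD, n = 3). After 44 h it was -0.22, 0.14 and 1.97, with a mean of 0.63 ± 1.17 (SD, n = 3). Replicate 3 held nearly the whole mean at 44 h, which was -0.04 without it. At 68 h replicates 1 and 2 were above 20 h and replicate 3 was level with it. Without replicate 2 the 68 h mean was 0.50, and without replicate 3 it was 1.35. The mean at 44 h was smaller than its SD, and that at 68 h hardly exceeded it. The 44 and 68 h replicates overlapped throughout, whereas all 3 replicates of 92 h lay above all 6 of the earlier times, a pattern found in 2.49% of genes. Through 20 h, the 92 h mean was 2.85 above that of 68 h on the log2 scale (SE 0.61) and 3.13 above that of 44 h (SE 0.77).

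VNN2 had the opposite sign. It was lower than at 20 h on 18 of 18 arrays and in 9 of 9 replicates, a run that 1.1% and 3.41% of genes showed. The 68 h ratio was the lowest, at -1.01, -1.64 and -0.83 in replicates 1, 2 and 3, with a mean of -1.16 ± 0.42 (SD, n = 3), or 44.8% of the 20 h level. A mean of -1 or less at 68 h was found in 30 genes, 0.272% of all. Without replicate 2 this mean was -0.92. At 44 h the replicates read -0.97, -0.82 and -0.67, with a mean of -0.82 ± 0.15 (SD, n = 3). At 92 h they read -0.70, -0.40 and -0.61, with a mean of -0.57 ± 0.15 (SD, n = 3). The 92 h replicates did not overlap those of 68 h, from which their mean differed by 0.59 (SE 0.26), a separation that 8.19% of genes showed, but they overlapped those of 44 h. The 44 and 68 h replicates overlapped as well. VNN2 was not among the calls of any time by limma at an adjusted p of 0.05. Those calls took in 1.08% of genes lower at 92 h and 0 of 11044 in either direction at 68 and at 44 h, where 1217 (11%) and 1057 (9.57%) genes had an unadjusted p under 0.05, against 1991 (18%) at 92 h.

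**Figure D1:**
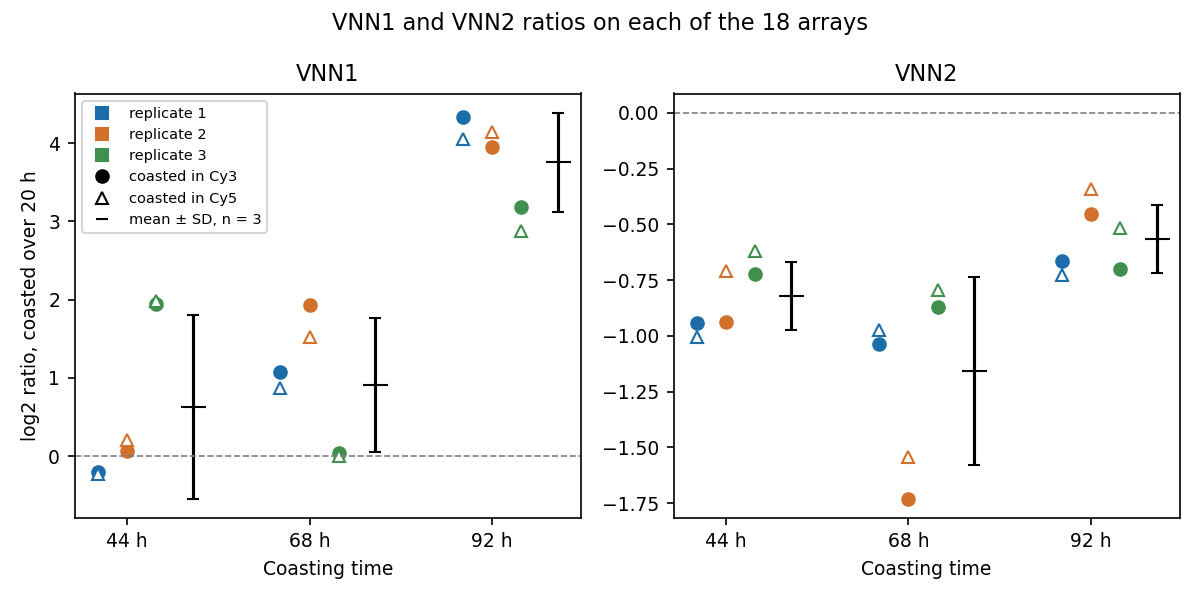
Log2 ratio of the coasted over the 20 h sample for VNN1 (left) and VNN2 (right) on each of 18 arrays, by coasting time. Colours are replicates, filled circles have the coasted sample in Cy3 and open triangles in Cy5, black bars are the mean ± SD of 3 replicates, and the 2 vertical axes differ in scale. VNN1 at 92 h lies between 2.88 and 4.33 on every array, and all VNN2 points lie below 0.

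The dye orientations of each replicate gave nearly the same reading. The 2 arrays of a replicate differed by 0.03 to 0.41 on the log2 scale for VNN1 (median 0.19) and by 0.06 to 0.23 for VNN2 (median 0.10). The median of this gap over all genes was 0.19, and 49.7% and 27.1% of genes had a smaller or equal gap than VNN1 and VNN2. For VNN1 the spread between replicates at 44 and 68 h was larger than the largest gap between the arrays of one replicate.

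Slides could be set against times only in part. The 92 h arrays filled 2 slides of their own, 1 for each orientation. Replicates 1 and 2 of 68 h shared a slide with both orientations, and replicate 3 of 68 h sat with the 3 replicates of 44 h on the remaining 2 slides, 1 for each orientation. Within the latter 2 slides VNN1 read 0.04 and 0.01 for 68 h. On them the 44 h arrays read -0.20, 0.07 and 1.95 on one slide and -0.23, 0.21 and 1.99 on the other. VNN2 read -0.87 for 68 h on the first of them, against -0.94, -0.94 and -0.72 for 44 h, and -0.79 on the second, against -1.0, -0.71 and -0.62. The 68 h replicates that shared a slide had the higher VNN1 and the lower VNN2 values, and slide and replicate cannot be told apart in that set.

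Levels in single channels, scaled so that arrays share one intensity distribution, separate the coasted sample from its 20 h partner. VNN1 reached 12.80, 13.71 and 11.68 in the 92 h channel on the log2 intensity scale. In the 68 h channel it stood at 10.47, 10.28 and 8.35, and in the 44 h channel at 8.13, 9.68 and 10.56. The lowest 92 h level was thus above the highest of the 6 earlier ones. These levels are rebuilt from the normalized ratio and the mean of both channels, so they are not independent of the ratios. The 20 h level of VNN1 had a mean of 8.86 ± 0.54 (SD) over 9 replicate values, which may share RNA. It ran from 8.33 through a median of 8.61 to 9.66. In order of mean level, 20 h (8.86), 44 h (9.45 ± 1.23) and 68 h (9.70 ± 1.17) overlapped with their neighbours, and 92 h (12.73 ± 1.01; SD, n = 3 for each longer time) stood apart.

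The 20 h level of VNN1 was not the same in all 20 h samples. It stood at 9.54 beside replicate 2 of 44 h, at 9.50 beside replicate 1 of 68 h and at 9.66 beside replicate 2 of 92 h. The other 6 values lay between 8.33 and 8.65. Each set of arrays held 1 of the high values, and none of the 3 high partners gave the highest ratio of its time. The same 3 partners held the highest 20 h levels of VNN2, at 12.13, 12.24 and 12.15. Whether these 3 channels held the same RNA was not tested. If they did, the 20 h values are not independent samples, and neither are the sets compared next. The mean 20 h level did not differ between sets beyond their spread: the 92 h arrays were 0.15 above the 44 h arrays and 0.18 above the 68 h arrays. By the exact permutation test (two-sided, 6 comparisons over both genes) p was 0.50 for both and 0.70 after Benjamini-Hochberg adjustment, in a design of 3 against 3 that cannot go below 0.10.

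VNN2 was steady at 20 h and lower in every coasted sample. Its 20 h level had a mean of 12.05 ± 0.11 (SD) over 9 replicate values, which may share RNA. It ran from 11.90 through a median of 12.05 to 12.24. The 44 h levels were 10.99, 11.31 and 11.40, the 68 h levels 11.24, 10.42 and 11.16, and the 92 h levels 11.23, 11.75 and 11.30. All 9 coasted levels lay below the lowest 20 h level. In order of mean level, 68 h (10.94 ± 0.45), 44 h (11.23 ± 0.22) and 92 h (11.42 ± 0.28; SD, n = 3 each) overlapped, and 20 h stood above them. The VNN2 20 h level differed between sets of arrays by 0.04 to 0.10 in size, with exact permutation p from 0.50 to 0.70.

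**Figure D2:**
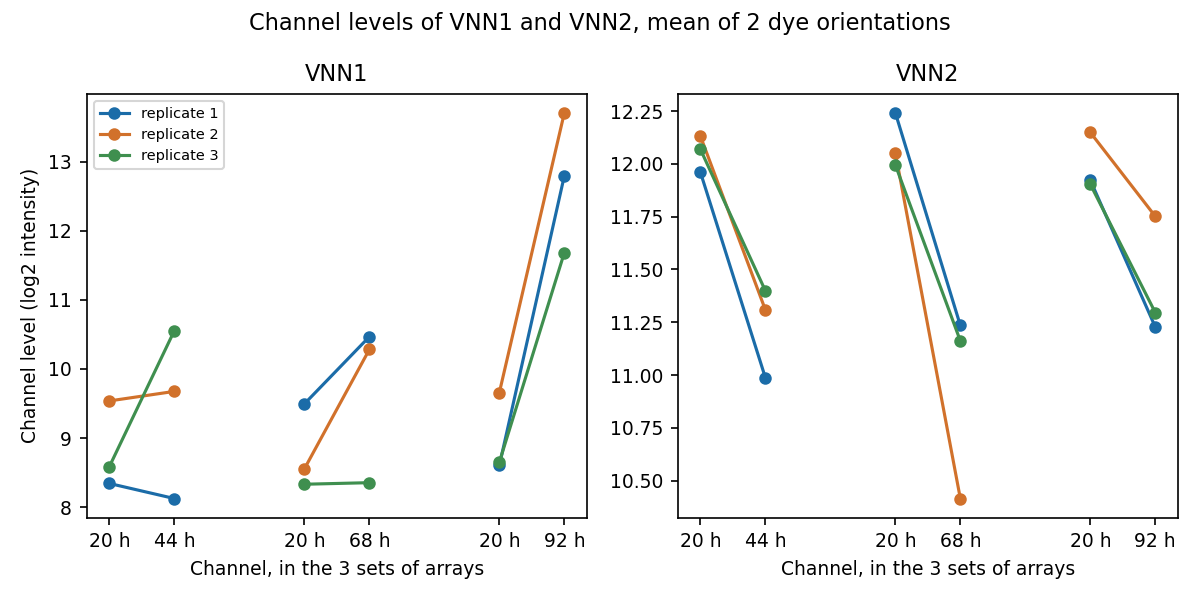
Channel level (log2 intensity, mean of 2 dye orientations) of VNN1 (left) and VNN2 (right) in the 20 h sample and in the coasted sample hybridised with it. Each line joins the channels of 1 replicate and colours are replicate numbers, which do not mark shared animals; the vertical axes differ in scale. The VNN1 level at 92 h is between 11.68 and 13.71, above all earlier values, and every VNN2 line slopes down.

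Both probes were above background in 36 of 36 channels, so no ratio is only a bound. VNN2 had ample signal, with no channel under 4.45 times the detection limit. For VNN1 the dimmest channel was 1.28 times the limit, in a 44 h sample. The 20 h spots of VNN1 read from 250 to 846 with a median of 340. The offset of 50 in the background correction lowers a high ratio with so dim a 20 h signal. Without this offset the VNN1 mean at 92 h was 3.94 with no background correction and 4.05 with plain subtraction, against 3.76. Net of local background alone, with no normalization or offset, replicate 1 at 92 h was 30.6 and 21.3 times its 20 h partner on its 2 arrays, against 18.3 times after normalization. For replicate 2 these folds were 20.2 and 15.1 against 16.5, and for replicate 3 they were 13.0 and 8.91 against 8.18. The authors' deposited table of log2 ratios, processed in a way not given in the sources used here, read 4.07 ± 0.65 for VNN1 at 92 h and -1.33 ± 0.32 for VNN2 at 68 h (SD, n = 3).

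VNN1 and VNN2 are neighbours on bovine chromosome 9 in the ARS-UCD2.0 gene order of RefSeq. Only a pseudogene is annotated between their starts, and no other protein-coding gene. Within each replicate VNN1 read above VNN2, by 4.32 ± 0.63 at 92 h, 2.07 ± 1.26 at 68 h and 1.45 ± 1.03 at 44 h (difference of log2 ratios, SD, n = 3). Over the 9 replicates the ratios of the 2 genes had a Pearson r of 0.44 and a Spearman rho of 0.63, a description over points that share the 20 h condition. Of 7 other genes within 3 places on either side, 3 had a tested probe. TAAR1 and TAAR2, trace amine receptor genes, stayed within 0.04 of 0 at every time. Both were dim, above background on all arrays of no time, so their ratios say little. In the deposited table they read 0.15 and -0.25 at 92 h. RPS12, a ribosomal protein gene beyond VNN2, read 1.03 ± 0.16 at 92 h and did not pass (adjusted p = 0.0957, limma). It read 0.14 ± 0.39 at 68 h and 0.69 ± 0.75 at 44 h.

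The genes closest to VNN1 followed its scatter between replicates at 44 and 68 h and were highest at 92 h, at lower ratios than VNN1. Closeness was the Pearson correlation of the 9 replicate log2 ratios, among 3901 genes whose values spanned at least 1. N4BP2L1 came first with r = 0.97, followed by the chemokine receptor CXCR4 (0.96), MYLIP (0.96), a ubiquitin ligase that targets lipoprotein receptors, MAN1A1 (0.95), a Golgi mannosidase that trims N-glycans, and PLIN2 (0.94), a coat protein of lipid droplets. Spearman's rho was 0.88 to 0.97. In 44 h replicate 3, where VNN1 was high, MAN1A1 read 2.17 and N4BP2L1 0.73, against -0.21 and 0.10 in replicate 1. In 68 h replicate 3, where VNN1 was level with 20 h, MAN1A1 read -0.02 and PLIN2 -0.47. At 92 h the means of the 5 genes were 1.07 to 2.57, all below that of VNN1. These genes were picked for likeness, so their values are no further support.

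VNN2 had no companion as close. SRSF2, a splicing factor, led with r = 0.87, and CCN1, a matrix-associated signalling protein, ID2, an inhibitor of helix-loop-helix factors, ASAP1, an ARF GTPase activator, and ACTL6A, a chromatin remodelling subunit, followed with r of 0.76 to 0.79. None of the 5 was below 20 h in all replicates, and SRSF2 was above it in 8 of them, so the likeness was one of ups and downs and not of level. Without 68 h replicate 2, the lowest VNN2 value, r of ID2 was 0.40.

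**Figure D3:**
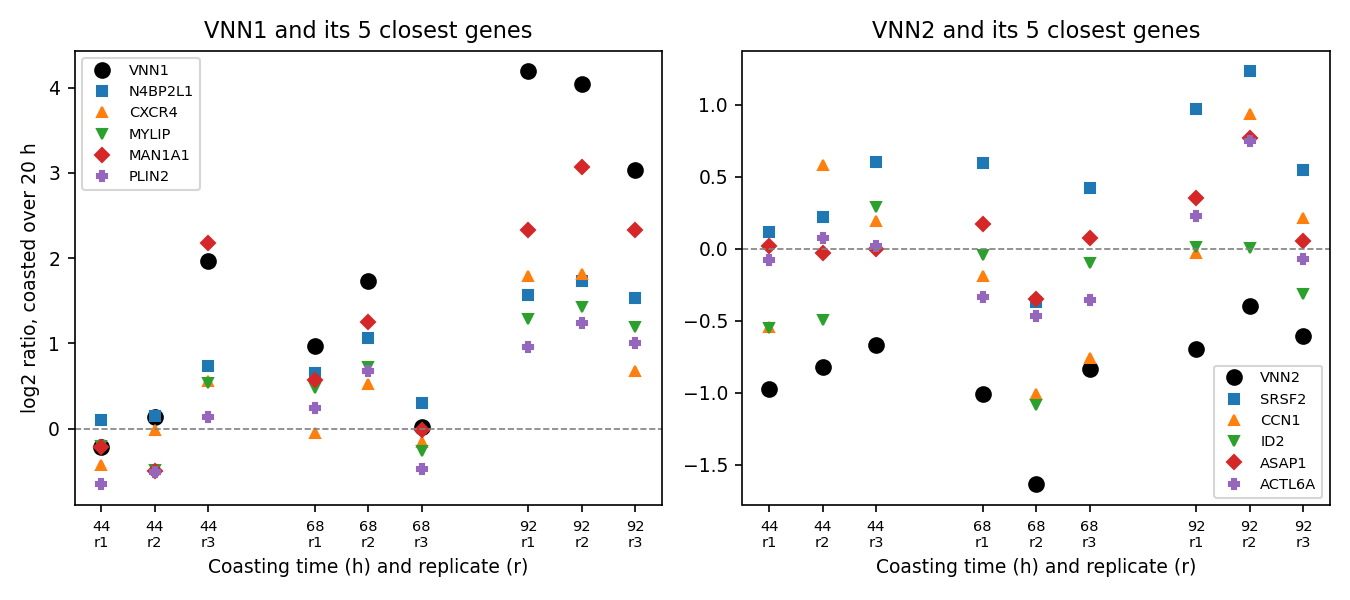
Log2 ratio over 20 h in each of the 9 replicates for VNN1 (left) and VNN2 (right), in black, and for the 5 genes with the highest Pearson correlation with each, in colour. The VNN1 companions are high in 44 h replicate 3, low in 68 h replicate 3 and highest at 92 h, while the VNN2 companions share its dip in 68 h replicate 2 at other levels.

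Genes around the vanin reaction gave 1 call in all. Across 6 lists 54 of 76 genes were tested, and by limma over all genes 1 rose, 0 fell at 92 h, against 1.24% of all genes called higher and 1.08% lower. At an unadjusted p under 0.05 there were 7 higher and 7 lower, against 9.78% and 8.25% of all genes. At 68 and 44 h 0 of the 54 passed, as did 0 of all 11044 genes. At 68 h 4 were higher and 3 lower at an unadjusted p under 0.05, against 5.99% and 5.03% of all genes. At 44 h 1 was higher and 2 were lower, against 4.31% and 5.26%. The median log2 ratio of the 54 at 92 h was -0.00, as over all genes (-0.00).

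Coenzyme A genes, which make, move or degrade the source of pantetheine, had a median of -0.04 over 11 tested genes at 92 h, with 0 past the test. PANK1, PANK3 and PANK4, the pantothenate kinases that start coenzyme A synthesis, read -0.10, -0.17 and -0.04. PPCDC, a decarboxylase of the same route, read -0.45 ± 0.13 (adjusted p = 0.236). ENPP1, a cell surface enzyme that splits nucleotides, read 1.37 ± 0.93 (adjusted p = 0.0847), against 0.01 and 0.03 at 44 and 68 h. The uptake of pantothenic acid by SLC5A6 had a ratio of -0.04 ± 0.47 at the mRNA level.

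Genes that carry cysteamine or cysteine to taurine had a median of -0.00 over 8 tested genes, with 0 past the test. GOT1, which can act on cysteine sulfinate, read -0.20 ± 0.13 (adjusted p = 0.129), and CTH, which makes cysteine, -0.11 ± 0.08 (adjusted p = 0.266). CDO1, cysteine dioxygenase, read -0.24 ± 0.09, and SLC6A6, the taurine transporter, -0.01 ± 0.06. ADO, the dioxygenase that acts on cysteamine itself, and CSAD had no probe under these symbols and were not analysed here.

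Glutathione genes had a median of -0.06 over 11 tested members, with 0 past the test. GCLM, the modifier subunit of the rate-limiting ligase, read -0.68 ± 0.34 (adjusted p = 0.0710), while GCLC, its catalytic subunit, read -0.16 ± 0.01 (adjusted p = 0.366). GPX3, the secreted glutathione peroxidase, read 0.89 ± 0.19 (adjusted p = 0.120). GPX4, the peroxidase of membrane lipids, was picked after its values were seen, as the lowest of the list, and read -1.99 ± 0.29 (adjusted p = 0.122), with -1.83 at 44 h and 0.03 at 68 h.

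Of the 4 relatives of the vanins in the nitrilase family, 1 rose at 92 h, beside 1.24% of all genes called higher. It was the 1 call among the 54 tested genes of all lists. NIT2, an omega-amidase, rose by 0.67 ± 0.21 (adjusted p = 0.0208) after 0.40 at 68 h and -0.02 at 44 h. That call was lost without any 1 of the 3 replicates of 92 h (adjusted p from 0.0546 to 0.118), with the replicate number as a block (0.0593) and with median centring in place of loess (0.147). BTD, biotinidase, the closest relative in function, read 0.15 ± 0.13, NIT1 -0.07 ± 0.33 and UPB1 -0.00 ± 0.06.

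The receptor PPARA and its classical target CPT1A were not above background by the filter used. Of 12 tested genes of the PPAR list 0 passed at 92 h, with a median of 0.01. PPARG and PPARD read -0.59 ± 0.32 and 0.42 ± 0.46. Among targets known from other tissues, PLIN2 read 1.07 ± 0.15 (adjusted p = 0.0626), PDK4, a brake on pyruvate use, 1.17 ± 0.75, and the fatty acid transporter CD36 0.47 ± 0.11, while ACADM, a fatty acid oxidation enzyme, read -0.54 ± 0.16 (adjusted p = 0.0612) and the fatty acid carrier FABP3 -0.61 ± 0.41. Of 8 genes that build GPI anchors or attach proteins to them, 0 passed, with a median of 0.02. PIGT, a subunit of the attaching complex, read 0.28 ± 0.19 (adjusted p = 0.203) and PIGM 0.36 ± 0.04 (adjusted p = 0.340).

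**Figure D4:**
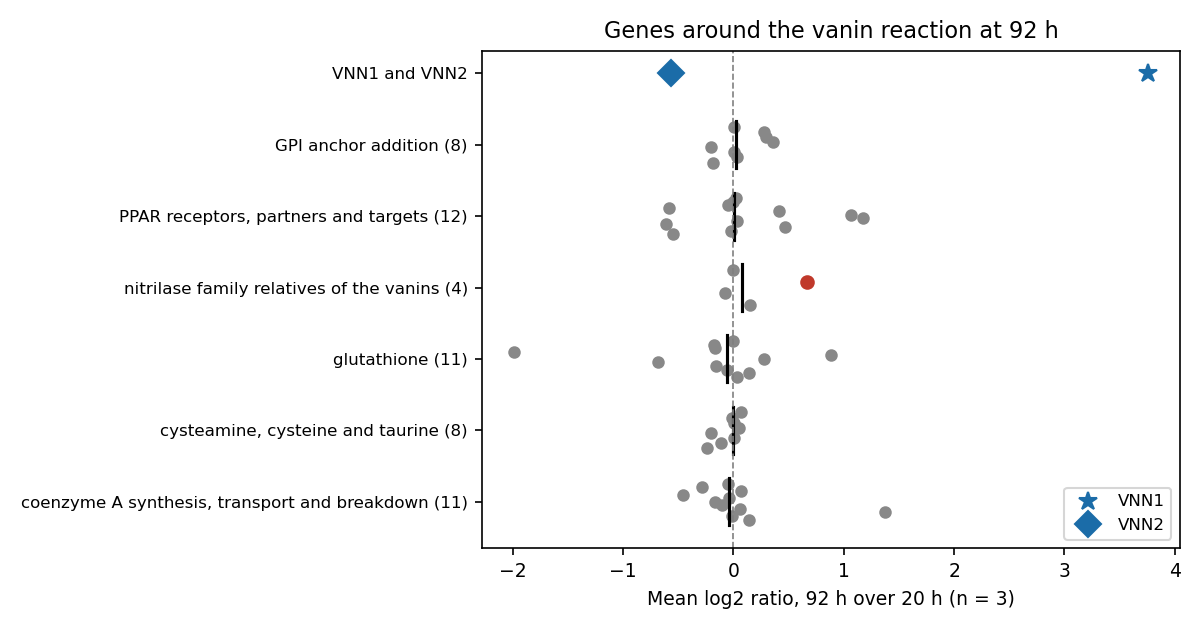
Mean log2 ratio at 92 h over 20 h for the tested genes of 6 lists around the vanin reaction (grey points, with NIT2, past an adjusted p of 0.05, in red), their median (black bars) and VNN1 and VNN2 above them. Numbers of tested genes stand in brackets. VNN1 at 3.76 lies beyond every listed gene, the highest of which is ENPP1 at 1.37 and the lowest GPX4 at -1.99.

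Markers of the sampled cells and of other cells were read beside VNN1 and VNN2. Genes of granulosa and cumulus identity, the sampled cells, were all tested. All 9 read below 0 at 92 h (median -0.85), with 0 past the test, beside 5563 of all 11044 genes. All 9 also read below 0 at 44 h (median -0.44), beside 5713 of 11044, and 6 did at 68 h (median -0.03). Their summed levels were 14.65 to 16.23 at 92 h against 15.94 to 16.66 at 20 h (log2). INHA, the inhibin alpha subunit, and INHBA read -0.85 ± 0.78 and -1.13 ± 1.74 at 92 h. FOXL2, a defining factor, was above background in 6 of 18 channels of 20 h and 0 of 6 of 92 h. In the theca list 6 of 7 genes were tested and MYH11 and PDGFRA rose at 92 h by 1.47 ± 0.37 and 1.66 ± 0.58 (adjusted p = 0.0120 and 0.0437). MYH11 was above background in 8 of 18 channels of 20 h and 6 of 6 of 92 h. It thus passed the filter on dim probes only through coasted samples, and its ratio and call rest on a dim 20 h signal. The call of MYH11 was lost without 92 h replicate 1 or 2 (adjusted p = 0.0913 and 0.0630), and that of PDGFRA without any 1 of 44 h replicate 1, 68 h replicates 1 and 3 and the 3 of 92 h (adjusted p from 0.0628 to 0.243). The PDGFRA call was also lost with median centring (0.1001), without the filter on dim probes (0.0612) and with the replicate block (0.0980). These 2 of 6 stand beside 1.24% of all genes called higher. No excess is read from them, because MYH11 was tested only through coasted samples. The summed level of the theca list was 13.58 to 13.94 at 92 h against 12.82 to 13.27 at 20 h. It was 12.61 to 13.99 at 44 h, a range that takes in that of 92 h, and 13.10 to 13.50 at 68 h. ACTA2, the brightest tested gene of the list, weighs most in this sum and did not pass at 92 h (adjusted p = 0.580, limma). ACTA2 read 0.57 ± 0.20, INSL3 -0.09 ± 0.03 and COL1A1 -0.05 ± 0.11. Of the 6 tested theca genes 3 read below 0 at 92 h (median 0.28). CYP17A1, the enzyme that defines theca, was above background in 5 of 18 channels of 20 h and 0 of 6 of 92 h.

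Leukocyte genes are of interest because human neutrophils carry VNN2. Of 15 listed genes 5 were tested, and ITGAM, ITGB2, S100A9, S100A12, CD14, LYZ, MPO and TYROBP did not pass the filter on dim probes. CD68 rose at 92 h by 0.93 ± 0.51 (adjusted p = 0.0465), CXCR4 read 1.43 ± 0.65 (adjusted p = 0.0504), and PTPRC, the pan-leukocyte marker, 0.05 ± 0.06. The other tested genes, S100A8 and FCER1G, read 0.00 ± 0.03 and -0.00 ± 0.01, and the median of the list was 0.05. This 1 call of 5 stands beside 1.24% of all genes called higher. The CD68 call was lost without 92 h replicate 1 or 2 (adjusted p = 0.229 and 0.255), 44 h replicate 1 (0.0746) or any replicate of 68 h (0.0588 to 0.0908). It was also lost with the replicate block (0.0693), median centring (0.0583), no filter on dim probes (0.0648) and the coasted sample in Cy5 alone (0.0878). The summed level of the list was 10.74 to 11.63 at 92 h against 10.45 to 10.71 at 20 h. This higher sum rested on CXCR4, the brightest tested gene of the list, and on CD68. CXCR4 was also among the genes picked for likeness to VNN1. At 68 h, where VNN2 was lowest, the summed level was 10.61 to 10.65, and at 44 h it was 10.54 to 10.77. At 68 h 0 of the list passed, as did 0 of all 11044 genes, so this count says nothing about the list.

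The remaining marker lists were mostly dim and had 0 genes past the test at any time. Over all genes 2.32% passed at 92 h and 0 of 11044 at 68 and at 44 h. KIT was above background in 18 of 18 channels of 20 h and 6 of 6 of 92 h, HBA in 18 of 18 and 1 of 6. For the oocyte 4 of 10 genes were tested, and at 92 h KIT read -0.55 ± 0.30 and ZP3 -0.00 ± 0.05, with summed levels of 9.96 to 10.11 against 10.08 to 10.24 at 20 h. For endothelium 4 of 6 were tested, with CDH5 at 0.00 and TEK at -0.03 and sums of 9.88 to 9.90 against 9.88 to 9.95. For erythrocytes 3 of 5 were tested, with HBA at -0.54 ± 0.50 and AHSP at 0.08 ± 0.07 and sums of 9.51 to 9.62 against 9.64 to 10.27. The part of other cells in the VNN1 and VNN2 ratios was not tested.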

How the data were processed

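Per the file headers, the authors' deposited scanner tables give mean spot and local background intensity in both channels, uncorrected. The authors' deposited table of log2 ratios served as an alternative; it follows scanned Cy5 over Cy3 with r of 0.68 to 0.83 over probes, has column medians of -0.04 to 0.02, and its normalization stays unknown. The share of 43794 gene probes above background was 44.3 to 68.7% in Cy3 and 26.5 to 58.9% in Cy5. Using limma 3.58.1 in R 4.3.3, normexp background correction (offset 50, all spots) was followed by within-array loess, in which control spots had no weight. Spots marked as ignored (2 to 24 per array) were left out. Every ratio was oriented as coasted sample over 20 h, and the 2 orientations were averaged, which left 9 values. A shift shared by most genes of one brightness would be removed by loess. Probes were kept when above background on at least 50% of the arrays of 1 of the 4 times (27381), and the brightest kept probe stood for a gene. Single-channel levels used Aquantile scaling. lmFit and eBayes were fitted over 11044 genes with 1 coefficient per time, a variance pooled over times (6 residual degrees of freedom) and two-sided Benjamini-Hochberg adjustment at 0.05; adjusted p-values are from this fit, which was tested on simulated data, unless an alternative or the permutation test is named beside them. Probe sequences were not used here.

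The members and lists were chosen with earlier results of these data known. Genes named are VNN1 and VNN2, list members past the threshold (otherwise the 2 of smallest p at 92 h), the 5 genes most correlated with each member, 3 neighbours on either side and, of marker lists, those past the threshold and the 2 brightest; further list genes of known role were added after their values were seen. Replicate numbers do not mark animals in the labels. Deviations of same-numbered values correlated across genes with r of 0.24 to 0.36 between 92 and 44 h and of -0.35 to -0.03 for pairs with 68 h. Alternatives covered background correction, normalization, dye orientation, the filter, probe choice, slide, the variance prior and left-out replicates.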

Additional observations from a re-analysis of the deposited data

How the results depend on the processing

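The VNN1 ratio at 92 h ranged from 3.66 to 4.07 over the processing alternatives and from 3.54 to 4.12 without single replicates, and that of VNN2 at 68 h from -1.33 to -1.10 and from -1.32 to -0.92. Both genes had 1 probe, so other probes could not be tried. The 20 h levels were also compared without scaling between arrays, an alternative chosen after seeing the data, where the 6 differences ranged from -0.18 to 0.17. VNN1 at 44 h ranged from -0.04 to 1.05 without single replicates, and at 68 h from 0.50 to 1.35. At 44 h, VNN2 read -1.02 with median centring. With 1 dye effect per slide over 12 arrays VNN1 read 1.96 and VNN2 -1.31 at 44 h; slide and orientation coincide for 44 h, so that by construction these values lean on the single 68 h replicate on the same slides, and 92 h could not be fitted.

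The count of genes past the threshold at 92 h, 256, was 459 without background correction, 472 with plain subtraction, 68 with median centring, 1489 with the coasted sample in Cy3 alone, 117 with the replicate block, 974 with slide as a random block over 18 arrays (correlation 0.18), 160 from 92 h alone and 0 with a trended and robust prior; the cause was not tested. Without single replicates it was 0 to 526 (0, 12 and 65 without 92 h replicate 1, 2 or 3). At 68 h the count of 0 became 4 with median centring, 62 and 1822 with the coasted sample in Cy5 or Cy3 alone, 134 and 269 with slide as a random or fixed block, and 0 to 21 without single replicates. At 44 h it became 92 in Cy3 alone, 36 and 4 with these slide blocks.

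Of the pathway genes, 1 passed at 92 h. This became 3 without background correction, 4 with plain subtraction or in the deposited table, 0 with median centring or the trended prior, 3 in Cy5 and 12 in Cy3 alone, 2 with the stricter filter, the replicate block or 92 h alone, 9 with slide as a random block, and 0 to 5 without single replicates. At 68 h, 10 passed in Cy3 alone and 2 with either slide block, and at 44 h 2 in Cy3 alone. With the replicate block NIT2, PDGFRA and CD68 lost their calls (adjusted p of 0.0593, 0.0980 and 0.0693) and MYH11 did not (0.0163). With the trended prior or 92 h alone none of these 4 passed (adjusted p from 0.0602 to 0.144). Fits on 1 orientation keep the dye effect, and counts over 18 arrays take dye swaps as replicates. The dim 20 h signal limits the VNN1 ratio.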
